A study of Homo sapiens with 4 samples.

Results

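Genomic imprinting silences one parental copy of a gene, so that an imprinted gene is read mostly from the maternal or the paternal chromosome. The 10 imprinted genes described here were IGF2, H19, CDKN1C, PEG3, MEST, PLAGL1, NNAT, GRB10, DIRAS3 and GNAS. They were chosen by name, as well-known imprinted genes outside the loci on chromosome 7 (around PEG10), 14 and 15. Of the 10, 7 had a transcript cluster (the array's unit for a gene) that carries their symbol alone, among 22465 genes measured in this way. The clusters that hold IGF2, H19 and PEG3 each carry several symbols, so that no value is given to these 3 genes themselves. An array signal sums both parental copies, so that it shows the total level and not which copy was read.

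SH-SY5Y cells were profiled with an LSD1+8a shRNA (2 arrays) or with a control shRNA (2 arrays). SH-SY5Y is a neuroblastoma cell line of human origin, much used as a model of neuronal differentiation. LSD1+8a is the neuronal splice form, with the extra exon 8a, of the histone demethylase LSD1 (gene KDM1A), and an shRNA is a short hairpin RNA that lowers its target by RNA interference. Both groups had been differentiated: 4 days with retinoic acid at 10 μM were followed by 3 days in serum-free medium with the neurotrophin BDNF at 50 ng/mL. Nothing in the labels says whether the 2 arrays of a group came from separate cultures, so the p-values below reflect array-to-array spread alone, and this may be technical.

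Imprinted genes carry marks of DNA methylation that are set in the germ line and kept in the body's cells by zinc finger proteins, the corepressor TRIM28 and DNA methyltransferases. Many of them act on growth: IGF2 is a growth factor, while CDKN1C, PLAGL1, GRB10 and DIRAS3 restrain division or growth factor signalling. LSD2 (KDM1B), the close relative of LSD1, is needed in mouse oocytes to set part of these marks. The comparison asked whether imprinted genes moved as a class when LSD1+8a was targeted.

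KDM1A had a log2 signal of 8.76 and 8.78 with the LSD1+8a shRNA, against 9.10 and 9.25 with the control shRNA, and was 1.32-fold lower (limma adjusted p = 0.0299). This signal covers the whole gene and does not measure exon 8a. The 22465 genes had a median log2 signal of 6.20 and 6.25 with the LSD1+8a shRNA, against 6.19 and 6.16 with the control shRNA. Background features with 13 to 18 G or C bases had medians of 4.71 and 4.72, against 4.50 and 4.43, a difference of 0.25. Genes with a mean level between 4 and 5 had a median difference of 0.19, those between 5 and 6 one of 0.21, and those between 9 and 10 one of -0.10. With limma, 23.3% of all genes passed an adjusted p of 0.05, 12.1% on the higher side (2721 genes) and 11.2% on the lower side (2524 genes). The split was 1109 higher and 2736 lower after median centring, and 857 and 2001 after cyclic loess. Without control replicate 1, and also without control replicate 2, no gene passed in any list below, since limma then called 0 of 22465 genes (9835 and 5339 at an unadjusted p under 0.05). With 1 array left out, the spread comes only from the group that still has 2 arrays, and the lone array is assumed to vary like them. Of 13 measured markers of sympathetic neuroblasts, 5 rose and 1 fell (46.2% called), with 10 positive differences and a median of 0.27. The largest calls were SCG2, CHGB and GATA3, which rose 2.06-fold, 1.59-fold and 1.38-fold, and ISL1, which fell 1.38-fold. DBH, an enzyme of noradrenaline synthesis, did not pass (-0.06, limma adjusted p = 0.825). It read 11.86 and 11.22 with the LSD1+8a shRNA, against 11.49 and 11.71 with the control shRNA. TH, another enzyme of this synthesis, was among the 5 that rose (0.35, limma adjusted p = 0.0411), although not after cyclic loess (limma adjusted p = 0.0634). For other cells, 3 of 6 glia markers rose (0 after cyclic loess), and 1 of 11 mesenchymal genes rose and 2 fell. Of 5 immune genes, 0 passed in limma and 2 had an unadjusted p under 0.05, against 45.1% of all genes. Of 15 cell division genes, 13 fell, with a median of -0.62.

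Sequences that belong to these loci are shown first. MicroRNA genes lie in or beside several of them: RefSeq places MIR483 inside the span of IGF2, MIR675 inside that of H19 and MIR335 inside that of MEST, while MIR296 and MIR298 are the neighbours of GNAS-AS1, the antisense gene of GNAS. The mature RNAs below are those of the 3 loci whose microRNA gene or hosting cluster was measured and for which a sequence was at hand. They are given 5′ to 3′ from RefSeq on GRCh38.p14, and the capitals mark the seed, bases 2 to 8, with which a microRNA pairs to its targets.
hsa-miR-335-5p (MEST, chr7:130496126-130496148, plus strand): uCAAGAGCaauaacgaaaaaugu
hsa-miR-335-3p (MEST, chr7:130496162-130496183, plus strand): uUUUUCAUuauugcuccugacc
hsa-miR-675-5p (H19, chr11:1996800-1996822, minus strand): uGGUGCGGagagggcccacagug
hsa-miR-675-3p (H19, chr11:1996768-1996787, minus strand): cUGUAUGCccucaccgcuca
hsa-miR-296-5p (GNAS locus, chr20:58817661-58817681, minus strand): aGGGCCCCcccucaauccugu
hsa-miR-296-3p (GNAS locus, chr20:58817626-58817647, minus strand): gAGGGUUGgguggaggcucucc
hsa-miR-298 (GNAS locus, chr20:58818280-58818303, minus strand): aGCAGAAGcagggagguucuccca
The 7 mature RNAs have 7 distinct seeds, so that no seed is shared between the loci.

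Several of these genes start at more than one promoter, and as background it is known for PLAGL1, GRB10, MEST and GNAS that only some of the starts are imprinted. RefSeq lists 5 starts for PLAGL1, 5 for GRB10, 5 for MEST and 6 for GNAS, and 1 each for DIRAS3 and H19. The pair of letters CG, the site of DNA methylation, occurred 1 to 32 times in the 250 bases before the starts of PLAGL1, 2 to 40 times for GRB10, 9 to 20 times for MEST and 9 to 33 times for GNAS, with a median of 11 over all 35116 such windows. CG reads the same on both strands. The PLAGL1 windows with the most and with the fewest CG pairs (the more upstream where tied) are shown because this gene had the largest difference of the 7, and its one cluster does not tell the starts apart. CG pairs are in capitals.
PLAGL1 start with 32 CG (chr6:144008260-144008509, minus strand, GRCh38.p14): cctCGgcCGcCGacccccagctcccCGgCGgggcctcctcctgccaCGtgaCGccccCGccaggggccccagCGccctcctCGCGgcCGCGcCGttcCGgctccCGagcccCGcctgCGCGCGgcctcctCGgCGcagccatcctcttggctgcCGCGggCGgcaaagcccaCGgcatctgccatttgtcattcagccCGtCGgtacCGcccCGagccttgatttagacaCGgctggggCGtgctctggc
PLAGL1 start with 1 CG (chr6:144055263-144055512, minus strand, GRCh38.p14): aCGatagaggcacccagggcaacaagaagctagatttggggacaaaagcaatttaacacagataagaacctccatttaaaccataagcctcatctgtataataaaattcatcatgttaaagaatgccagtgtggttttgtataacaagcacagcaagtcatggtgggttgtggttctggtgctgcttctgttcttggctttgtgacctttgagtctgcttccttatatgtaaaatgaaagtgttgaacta
At least 32 CG pairs were found in 9.52% of all windows, and at least 1 in 93.9%. The palindrome GGGGCCCC, which the PLAGL1 protein is known to bind, was in 1 of the 23 windows of these genes, the first of the PLAGL1 windows shown, and in 1.77% of all windows. A match is a description of letters and not a measured site.

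Of the imprinted genes NNAT fell, none rose and 6 of the 7 did not pass the test, so that 14.3% of the measured genes were called, against 23.3% of all genes. Differences were positive for 3 genes and negative for 4, while 61% of all genes had a positive one. Their median was -0.01 on the log2 scale, against 0.08 over all genes, and the median size of the difference, whatever its sign, was 0.14 against 0.21. The groups did not overlap for 3 of the 7 genes (NNAT, PLAGL1 and GRB10), against 74.4% of all genes. At an unadjusted p under 0.05 the same 3 genes passed, against 45.1% of all genes. In bulk RNA, fewer cells that express a gene and less RNA per cell cannot be told apart.

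**Figure D1:**
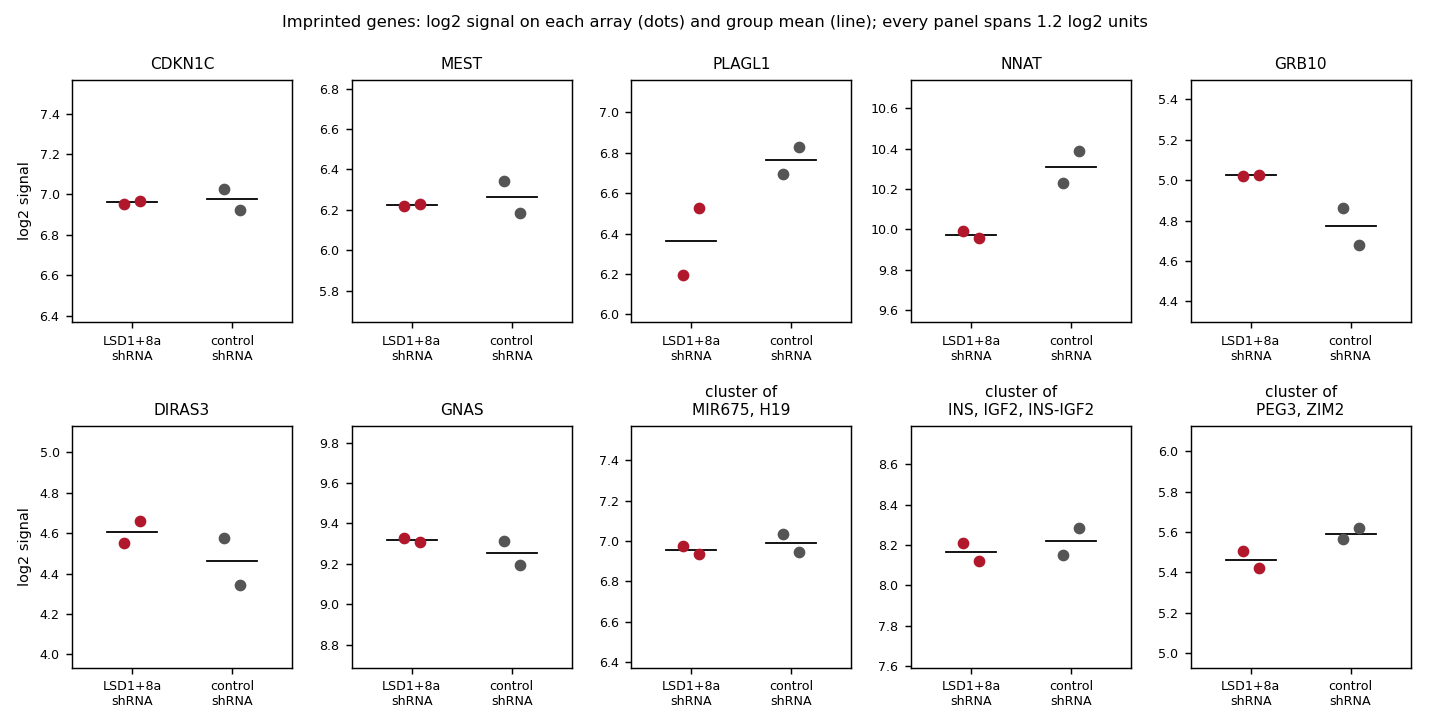
Log2 signal (vertical axis) of the 7 imprinted genes and of the 3 clusters that carry IGF2, H19 or PEG3 beside other symbols, with 1 dot per array, the 2 LSD1+8a shRNA arrays on the left and the 2 control arrays on the right, and a line at the group mean. Every panel spans 1.2 log2 units, and NNAT and PLAGL1 show the lowest dots with the LSD1+8a shRNA relative to control.

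NNAT encodes neuronatin, a small membrane protein of the endoplasmic reticulum in developing brain, and is read from the paternal copy. It had a log2 signal of 9.99 and 9.96 with the LSD1+8a shRNA, against 10.23 and 10.39 with the control shRNA. Both LSD1+8a shRNA arrays lay below both control arrays, and the means were 9.97 ± 0.02 and 10.31 ± 0.12 (SD, n = 2 each). NNAT fell 1.26-fold, by a difference of -0.34 ± 0.09 (SE; limma adjusted p = 0.0420) with a 95% interval of -0.55 to -0.12. The 98 genes with a mean level between 10 and 11 had a median of -0.09, and 12.2% of them were called lower. The call was lost with any 1 array left out (limma adjusted p 0.0666 to 0.203), after quantile normalization (-0.17, limma adjusted p = 0.248), after cyclic loess (-0.25, limma adjusted p = 0.0771), with trended and robust moderation (limma adjusted p = 0.0661) and over all transcript clusters (limma adjusted p = 0.0934), and the sign stayed negative in all of these. BLCAP, within whose gene NNAT lies in an intron, had a difference of 0.08 ± 0.08 (SE; limma adjusted p = 0.451).

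Of the genes that restrain growth, none passed the test, and PLAGL1 came nearest. PLAGL1, a zinc finger transcription factor read from the paternal copy that arrests the cell cycle and, in mouse, regulates other imprinted genes, read 6.19 and 6.53 with the LSD1+8a shRNA, against 6.70 and 6.83 with the control shRNA. Replicate 1 with the LSD1+8a shRNA was the lowest of the 4, and the groups did not overlap. The means were 6.36 ± 0.24 and 6.76 ± 0.10 (SD, n = 2 each), and the difference was -0.40 ± 0.12 (SE; limma adjusted p = 0.0525, just over the threshold), with a 95% interval of -0.69 to -0.11. Among the 7 genes this was the largest in size, and genes between 6 and 7 had a median of 0.07. Without LSD1+8a shRNA replicate 1 the difference was -0.24, and without LSD1+8a shRNA replicate 2 it was -0.57 (limma adjusted p = 0.0175, with the spread of the control arrays alone). HYMAI, a non-coding RNA from the imprinted PLAGL1 start, read 2.99 and 3.23 against 2.94 and 3.36, below the background medians of every array, so no difference is drawn from it.

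CDKN1C encodes p57, an inhibitor of cyclin-dependent kinases read from the maternal copy. Its log2 signal was 6.95 and 6.97 with the LSD1+8a shRNA, against 7.03 and 6.92 with the control shRNA. The control arrays lay on either side of the LSD1+8a shRNA arrays. The difference was -0.01 ± 0.09 (SE; limma adjusted p = 0.903), and its 95% interval of -0.22 to 0.19 leaves room for a level up to 1.16-fold lower or 1.14-fold higher. The related inhibitor genes CDKN1A (p21) and CDKN1B (p27), which are not imprinted, had differences of 0.27 ± 0.12 (SE; limma adjusted p = 0.125) and -0.32 ± 0.08 (SE; limma adjusted p = 0.0375). CDKN1B thus fell 1.25-fold, although not after cyclic loess (limma adjusted p = 0.0787), in the same arrays in which 13 of 15 cell division genes fell.

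GRB10, an adaptor protein that dampens insulin and insulin-like growth factor receptors, read 5.02 and 5.03 with the LSD1+8a shRNA, against 4.86 and 4.68 with the control shRNA. The groups did not overlap, and the difference was 0.25 ± 0.09 (SE; limma adjusted p = 0.0797), with a 95% interval of 0.03 to 0.47. Genes between 4 and 5 had a median of 0.19, the background features differed by 0.25, and after cyclic loess the difference of GRB10 was 0.06. DIRAS3, a small GTPase of the RAS family read from the paternal copy that is lost in several cancers, read 4.55 and 4.66, against 4.58 and 4.35. The ranges overlapped, and the difference was 0.14 ± 0.11 (SE; limma adjusted p = 0.311). It was 0.01 after quantile normalization and -0.04 after cyclic loess. With the LSD1+8a shRNA, DIRAS3 lay below the background medians of both arrays, so that it cannot be told from an unexpressed gene there.

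GNAS and MEST did not differ beyond the spread between arrays. GNAS encodes the alpha subunit of the stimulatory G protein, which links receptors to cyclic AMP, and has several imprinted starts. It read 9.33 and 9.31 with the LSD1+8a shRNA, against 9.31 and 9.19 with the control shRNA. Replicate 1 of the control shRNA lay between both LSD1+8a shRNA arrays. The difference was 0.07 ± 0.09 (SE; limma adjusted p = 0.571), with a 95% interval of -0.14 to 0.27. It was 0.19 after quantile normalization, 0.16 after cyclic loess, 0.015 after median centring, 0.13 without control replicate 1 and 0.0075 without control replicate 2, with no call in any of these. MEST, an enzyme of the alpha/beta hydrolase family read from the paternal copy, read 6.22 and 6.23, against 6.34 and 6.19. The control arrays lay on either side, and the difference was -0.04 ± 0.09 (SE; limma adjusted p = 0.740), with a 95% interval of -0.25 to 0.17. For 6 of the 7 genes the 95% interval lay within 1.5-fold in both directions, and PLAGL1, whose interval reached 1.62-fold lower, was the exception. DIRAS3 is among the 6, but its signal lay near the background, so its interval sets no bound on a change of that gene.

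**Figure D2:**
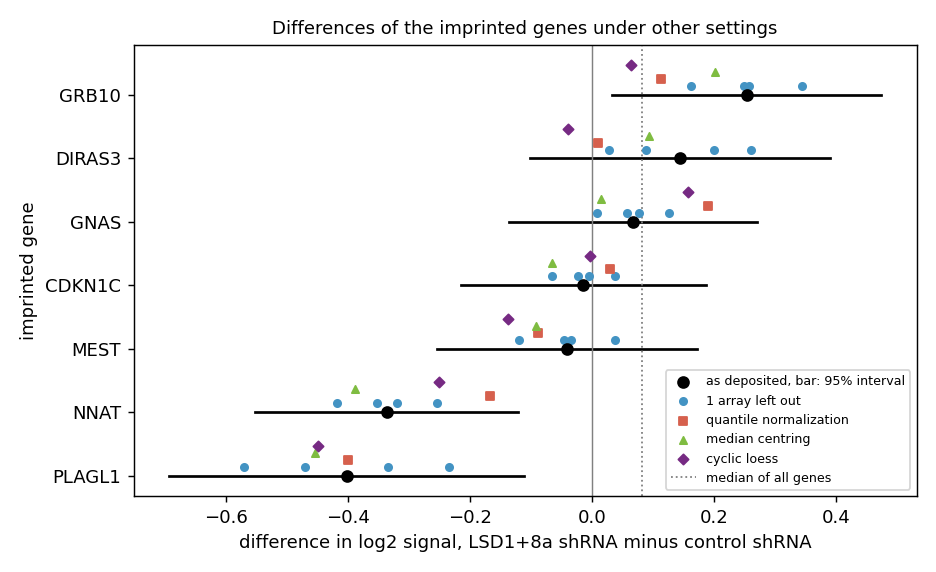
Difference in log2 signal (horizontal axis, LSD1+8a shRNA minus control shRNA) of each of the 7 imprinted genes, with a black dot and its 95% interval for the values as deposited and coloured marks for other settings. The marks of PLAGL1 and NNAT stay below 0 and those of GRB10 and GNAS above 0 in all settings drawn. DIRAS3, CDKN1C and MEST have marks on both sides of 0.

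The 3 clusters with several symbols were measured but not given to a gene. A cluster that carries the symbols MIR675 and H19, the growth-restraining non-coding RNA of the IGF2 locus, read 6.98 and 6.93 with the LSD1+8a shRNA, against 7.03 and 6.95 with the control shRNA (difference -0.03 ± 0.08 (SE); limma adjusted p = 0.765). A cluster that carries INS, IGF2 and INS-IGF2 read 8.21 and 8.12, against 8.15 and 8.29 (-0.05 ± 0.09 (SE); limma adjusted p = 0.672). A cluster that carries PEG3, a zinc finger gene read from the paternal copy, and ZIM2 read 5.50 and 5.42, against 5.56 and 5.62 (-0.13 ± 0.08 (SE); limma adjusted p = 0.263). Only in the PEG3 and ZIM2 cluster did the groups not overlap, and none of the 3 passed in a fit to which the clusters with several symbols had been added. With these 3 counted, 1 of 10 was lower and 0 higher.

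At the same loci few other genes passed. Of 18 measured genes listed as imprinted or reported to be so at these loci, 2 rose, 0 fell and 16 did not pass (11.1% called, against 23.3% of all genes), with a median of 0.17. After cyclic loess the median was 0.08, 1 rose (GNAS-AS1) and 1 fell. The fall was that of MIMT1 at the PEG3 locus (-0.42, limma adjusted p = 0.0475). As deposited, MIMT1 differed by -0.23 (limma adjusted p = 0.0977) and read 4.71 and 4.81 with the LSD1+8a shRNA, close to the background. GNAS-AS1, the antisense RNA of the GNAS locus, rose 1.45-fold: it read 9.47 and 8.99 with the LSD1+8a shRNA, against 8.68 and 8.70 with the control shRNA (0.54 ± 0.15 (SE); limma adjusted p = 0.0434), with LSD1+8a shRNA replicate 1 well above the others. It was 0.30 without LSD1+8a shRNA replicate 1 and 0.77 without LSD1+8a shRNA replicate 2. Its other cluster (TC20000988.hg.1) differed by 0.04. That cluster read 5.04 and 4.93 with the LSD1+8a shRNA, against 4.84 and 5.06 with the control shRNA, near the background, so it says little about a change. The span of GNAS-AS1 overlaps that of GNAS, and their signals cannot be told apart if the probes did not separate strands. CPA4, a carboxypeptidase of the MEST locus, rose 1.24-fold (4.47 and 4.52, against 4.22 and 4.16; limma adjusted p = 0.0419), below the background median of every array and with no call after cyclic loess (limma adjusted p = 0.213).

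Around IGF2 and CDKN1C on chromosome 11, 6 of 7 listed genes with a cluster of their own had positive differences, up to 0.35, against 61% of all genes. The 7 were IGF2-AS, MIR483, KCNQ1, KCNQ1OT1, KCNQ1DN, PHLDA2 and CDKN1C, of which CDKN1C had the negative difference. MIR483, the microRNA gene inside IGF2, was the one that passed, reading 7.03 and 7.10 with the LSD1+8a shRNA, against 6.79 and 6.63 with the control shRNA (0.35 ± 0.09 (SE), 1.28-fold higher; limma adjusted p = 0.0384, and 0.0472 after cyclic loess). The clusters that carry IGF2 or H19 beside other symbols were not among the 7. They had the negative differences of -0.05 (INS, IGF2 and INS-IGF2) and -0.03 (MIR675 and H19) given above. KCNQ1OT1, the antisense RNA that silences CDKN1C and its neighbours on the paternal copy, had a difference of 0.31 ± 0.11 (SE; limma adjusted p = 0.0670), at 4.28 and 4.02 against 3.88 and 3.78, below the background medians. PHLDA2, a growth restrainer of the same cluster, had one of 0.29 ± 0.10 (SE; limma adjusted p = 0.0604). The other microRNA genes did not pass: the difference was 0.19 for MIR335, 0.29 for MIR296 (limma adjusted p = 0.0525) and 0.18 for MIR298, and genes of their level had medians of 0.19 to 0.21. These features report the microRNA gene's transcript and not the mature RNA shown above.

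**Figure D3:**
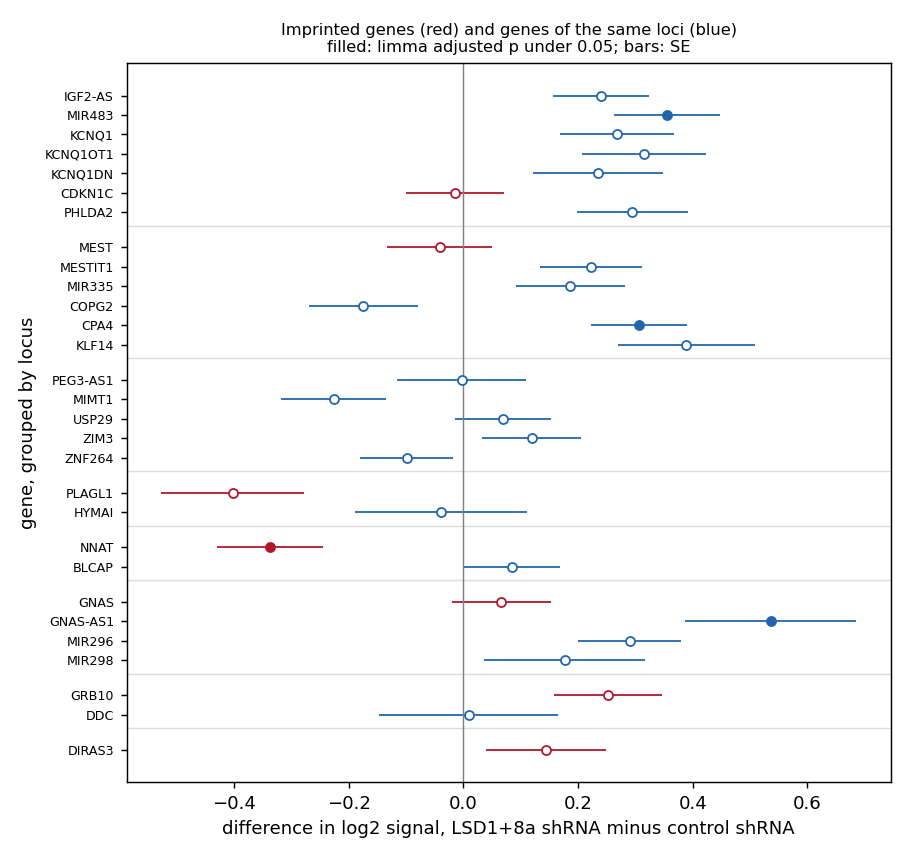
Difference in log2 signal (horizontal axis, LSD1+8a shRNA minus control shRNA) of the imprinted genes in red and of measured genes of the same loci in blue, grouped by locus, with bars of 1 SE and filled dots for a limma adjusted p under 0.05. Filled dots are NNAT on the lower side and MIR483, CPA4 and GNAS-AS1 on the higher side.

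Over all 3 lists of other imprinted genes, the 18 of the same loci included, 80 were measured, of which 9 rose and 2 fell, so that 13.8% were called, against 23.3% of all genes. Their median was 0.15 and was 0.04 after cyclic loess, where 3 rose and 2 fell and 12.7% of all genes were called. The list holds genes reported as imprinted in at least some human tissue, and not each is known to be imprinted in neuroblastoma. Of 21 genes of the loci on chromosomes 7, 15 and 14, 4 rose and 0 fell. PEG10, a gene derived from a retrotransposon, and its neighbour TFPI2 rose 2.77-fold and 2.49-fold, and MAGEL2 and the non-coding RNA MEG3 rose 1.25-fold and 1.23-fold, with no call for the last pair after cyclic loess. Of 41 genes elsewhere, 3 rose and 2 fell: the vault RNA gene VTRNA2-1 by 0.50, the potassium channel gene KCNK9 by 0.47 and WT1, a transcription factor gene, by 0.30, against -0.41 for ZC3H12C and -0.37 for RB1, the retinoblastoma gene. Of these 5, only ZC3H12C was also called after cyclic loess, and VTRNA2-1 read below the background median of every array.

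**Figure D4:**
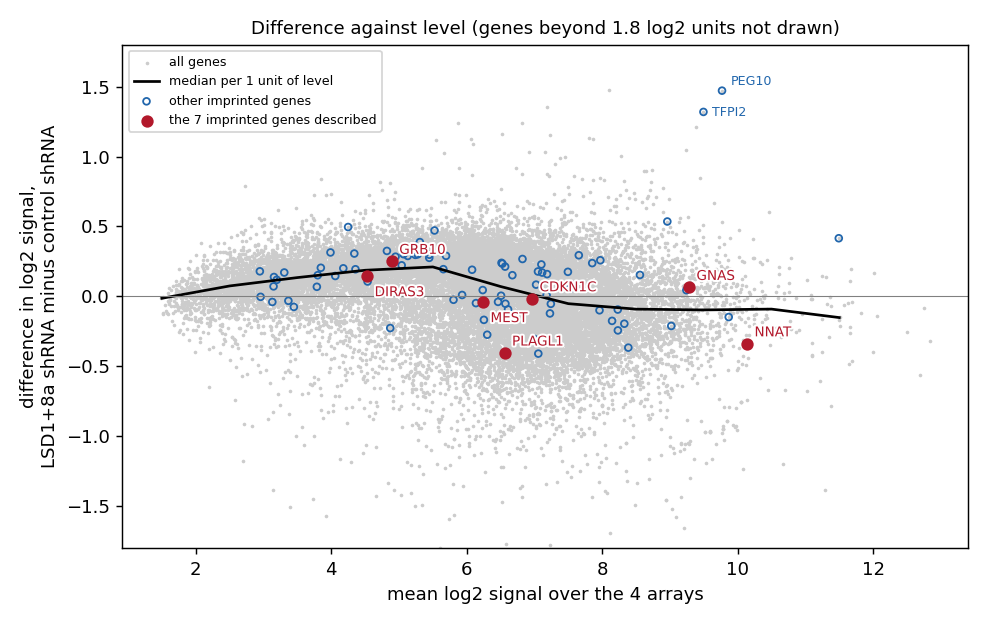
Difference in log2 signal (vertical axis, LSD1+8a shRNA minus control shRNA) against the mean log2 signal over the 4 arrays (horizontal axis) for all genes in grey, other imprinted genes as blue circles and the 7 imprinted genes in red, with the median per unit of level as a black line (7 genes beyond 1.8 log2 units are not drawn). GRB10 and DIRAS3 lie close to the line, NNAT and PLAGL1 lie below it, and PEG10 and TFPI2 stand far above the other imprinted genes.

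Among genes that set or keep imprints, the share of calls in both directions together was near that of all genes, but most of the calls were falls. Of 31 measured imprinting regulators, 6 fell, 1 rose and 24 did not pass (22.6% called, against 23.3% of all genes), with a median of -0.12. Of all genes, 11.2% were called lower and 12.1% higher. Most of the 31 had a mean level between 7 and 10. Among all genes of these levels, 18.2% to 20.1% per unit of level were called lower and 3.4% to 6.7% higher. Between 5 and 6, the shares were 7.7% lower and 23.2% higher. Whether the falls exceed those of genes of the same level was not tested. After cyclic loess, 5 of the 31 fell and 0 rose, while 2001 of all genes fell and 857 rose. TET1, which oxidises methylated cytosine, fell 1.74-fold and read 7.22 and 7.31 with the LSD1+8a shRNA, against 7.98 and 8.16 with the control shRNA (limma adjusted p = 0.00877). SMCHD1, a chromatin protein that silences imprinted clusters in mouse, fell 1.68-fold and read 7.24 and 7.26, against 7.91 and 8.09 (limma adjusted p = 0.00953). Both groups were apart for each of these genes. HELLS, a chromatin remodeller that DNA methylation needs, fell 1.68-fold, and EZH2, the Polycomb methyltransferase, fell 1.52-fold. These 4 were also called after cyclic loess, as was the Polycomb gene EED, which fell 1.33-fold (limma adjusted p = 0.0283). They moved in the same arrays as the cell division genes, 13 of 15 of which fell, and the part of division in their fall was not tested. CTCF, which binds the unmethylated control region between IGF2 and H19, fell 1.26-fold (limma adjusted p = 0.0368, and 0.0879 after cyclic loess). Among other genes that recognise or maintain the marks, the difference was 0.24 for ZFP57 (limma adjusted p = 0.0785), -0.17 for ZNF445 (limma adjusted p = 0.163), -0.02 for TRIM28 (0.920), -0.21 for DNMT1 (0.179) and -0.25 for UHRF1 (0.0764), none of which passed. KDM1B, the relative of LSD1, had one of -0.12 ± 0.09 (SE; limma adjusted p = 0.308).

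Of 33 genes of the insulin-like growth factor axis, in which IGF2 and GRB10 act, 2 rose, 3 fell and 28 did not pass (15.2% called, against 23.3% of all genes), with a median of 0.00. The transcription factor gene FOXO3 fell 1.39-fold and the binding protein gene IGFBP3 1.32-fold, while PAPPA2, a protease of binding proteins, rose 1.36-fold and IGFBP6 rose 1.26-fold. After cyclic loess 0 of the 33 were called by limma, against 12.7% of all genes. In the values as deposited, 10 of the 33 had an unadjusted p under 0.05, against 45.1% of all genes. The receptor genes IGF1R and IGF2R, the second of which clears IGF2, had differences of -0.11 and -0.09 (limma adjusted p = 0.348 and 0.417).

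Of 38 genes of Gs and cyclic AMP signalling, the receptors, enzymes and targets that act with GNAS, 5 rose, 3 fell and 30 did not pass (21.1% called, against 23.3% of all genes), with a median of 0.11. CREB1, the cyclic AMP response factor, fell 1.37-fold and the phosphodiesterase gene PDE4B fell 1.36-fold. The adenosine receptor gene ADORA2A rose 1.36-fold and the phosphodiesterase gene PDE7B rose 1.35-fold. These 4 and RIC8B, a chaperone of the stimulatory G protein that fell 1.27-fold, were also called after cyclic loess.

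A further list held relatives of the imprinted genes that are not imprinted. For NNAT it held the calcium pump gene ATP2A2 and the pump regulators PLN and SLN, listed for their function and not as family members. Among the 16 measured genes of this list, 2 rose and 1 fell (18.8% called, against 23.3% of all genes), with a median of 0.13. Beside CDKN1B, these were SLN, a small membrane regulator of calcium pumps, as NNAT is thought to be (5.28 and 5.33, against 4.94 and 4.71; 1.40-fold higher; limma adjusted p = 0.0271), and GRB7, an adaptor of the GRB10 family (5.96 and 5.94, against 5.59 and 5.55; 1.30-fold higher; limma adjusted p = 0.0285). Neither was called after cyclic loess (limma adjusted p = 0.0575 and 0.0782). The relatives that did not pass had differences of 0.01 for PLAGL2, 0.13 for DIRAS1, 0.26 for DIRAS2 and 0.14 for GNAL. The other G protein genes GNAQ, GNAI1 and GNAI2 had differences of -0.10, -0.18 and 0.10, and the calcium pump gene ATP2A2 had one of -0.05. PLAG1, GRB14, IGF1 and PLN read below the background median of every array, so no difference is drawn from them.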

How the data were processed

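The authors deposited log2 signals, 1 per feature and array. Per the submitters' processing notes, RMA was used. The version of RMA is not given in the sources used here, nor is the array's genome build. RMA makes no detection call. Of 70523 features, 67528 are transcript clusters, of which the platform's gene table gives 1 symbol to 23781, several to 1543 and none to 42204. Those with 1 symbol gave 22465 genes, 22167 of them in the RefSeq table of GRCh38.p14. For the 479 genes with more than 1 cluster, the brightest on average was kept.

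The groups were compared by limma 3.58.1 (R 4.3.3; lmFit, then eBayes) over all 22465 genes without a filter, and p-values were adjusted by Benjamini-Hochberg at 0.05. SE and 95% intervals come from this fit, with 2 residual and 5.41 prior degrees of freedom. Having 4 arrays limits the precision. The fit was tested on simulated data with 50 genes changed at each size. It recovered 10% of those changed by 0.4 log2 units, 50% at 0.6, 96% at 1.0 and 100% at 2.0. Of its 136 calls, 8 were false. Far fewer genes were changed there than were called in the arrays, so these shares need not hold for them. The genes, lists and settings were chosen with earlier results of these data known. Named are all imprinted genes, hosted microRNA genes and relatives, and up to 4 called genes by size from each other list. The mesenchymal, glia, immune and cell division lists are given as counts only. Further genes named for their place in a locus or a pathway, DBH, TH, WT1, CTCF, EED and RIC8B were added after their values were seen. Alternatives were each array left out in turn, a block for the replicate number, quantile normalization, centring on the median, cyclic loess (pairs), trended and robust moderation, only genes above the median level, a mean over each gene's clusters, and all clusters. One more, adding clusters with several symbols, was chosen after seeing the data.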

Additional observations from a re-analysis of the deposited data

How the results depend on the processing

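The counts of calls moved with the processing, and so did the differences of single genes. Limma called 5245 genes as deposited, 0 to 2834 with 1 array left out, 3493 after quantile normalization, 2858 after cyclic loess, 881 over all transcript clusters and 7954 with the replicate number as a block. Of the imprinted genes, 1 was called lower as deposited (NNAT). This was 0 after quantile normalization, after cyclic loess and over all clusters, 2 (NNAT and PLAGL1) with median centring, with only genes above the median level and with the replicate block, and 0 to 1 with 1 array left out. The 1 called without LSD1+8a shRNA replicate 2, and with trended and robust moderation, was PLAGL1. None was called higher in any of the settings. The median of the imprinted genes lay between -0.066 and 0.038 over all settings. NNAT (-0.34 as deposited) was -0.42 to -0.26 with 1 array left out, -0.17 after quantile normalization and -0.25 after cyclic loess. With the same difference of -0.34, its limma adjusted p was 0.0661 with trended and robust moderation and 0.0934 over all clusters. PLAGL1 passed with a difference of -0.57 without LSD1+8a shRNA replicate 2, of -0.45 with median centring, and of -0.40 with trended and robust moderation, with genes above the median level and with the replicate block (limma adjusted p = 0.00966 for the block), and ran from -0.57 to -0.24 with 1 array left out. The sign turned for CDKN1C (0.037 without control shRNA replicate 1, 0.029 after quantile normalization), MEST (0.038 without control shRNA replicate 1) and DIRAS3 (-0.040 after cyclic loess), none of them called in any setting. CDKN1C ran from -0.066 to 0.037 and MEST from -0.12 to 0.038 with 1 array left out. GRB10 was 0.25 as deposited, 0.11 after quantile normalization and 0.063 after cyclic loess. The cause of these changes was not tested. The replicate numbers were not taken as pairs, since same-numbered arrays hardly deviated together (r = 0.02 across genes, which are not independent). Dim genes such as DIRAS3 are limited by signal near the background.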
